A study of Mus musculus with 14 samples.

Results

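Chemokines are small secreted proteins that bind receptors on leukocytes and guide them to vessel walls and into tissue, and members of the TNF family are ligands and receptors that signal for inflammation, survival or cell death. In the brain and retina, endothelial cells (ECs), perivascular cells, glia and neurons each make some of these proteins, so the cell type of a transcript says where a signal can start. TGF-beta signaling in ECs is known as a restraint on vascular inflammation.

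Transcripts of 9 named genes were followed here, out of 26528 genes in the brain matrix and 28316 in the retina matrix. The 9 are 6 chemokines (*Ccl2*, *Ccl19*, *Ccl25*, *Cx3cl1*, *Cxcl10* and *Cxcl12*), the death ligand *Tnfsf10* (TRAIL), the decoy receptor *Tnfrsf11b* (osteoprotegerin), and *Tnfaip1*. All 9 were chosen by name, and each was found in both matrices. *Tnfaip1* is not a member of the TNF family by sequence: it codes for a BTB-domain adaptor of the Cul3 ubiquitin ligase and is named for its induction by TNF. Of the 9, 7 (all but *Cxcl10* and *Cxcl12*) were picked out by the study on the same brain EC libraries, so their direction in brain ECs is no independent evidence.

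The study sequenced nuclear RNA of mice in which *Tgfbr1* was deleted from ECs after birth. The conditional knockout (CKO) mice carried VEcadCreER (Cdh5CreER), which drives recombination in vascular ECs, with 1 floxed and 1 null allele of *Tgfbr1*, and had 4-hydroxytamoxifen between postnatal days 3 and 5. Controls are labelled wild type, while the paper describes phenotypically wild-type controls, typically with Cdh5CreER and 1 floxed and 1 wild-type allele. Whether the control libraries here are of that kind, and whether their mice also had 4-hydroxytamoxifen, is not in their labels. The labels call the mice young adults, and the paper gives an age before weaning. Retinal libraries came from whole retinas (1 control and 11 CKO libraries), and the brain libraries from vascular fragments of pooled brains enriched on Ficoll (1 control and 1 CKO library).

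The brain control library held 16649 nuclei and 49798325 UMIs (unique molecular identifiers, each counting 1 captured RNA molecule), and the brain CKO library 14675 nuclei and 31033373 UMIs. The retina control library held 11513 nuclei and 30989702 UMIs. The 11 retina CKO libraries held 66163 nuclei, with a lowest total of 90449 UMIs, a median of 16443337 and a highest of 55803724. CKO library 4, with 104 nuclei, is the lowest and is too small to give levels by cell type. Of the distinct barcodes, 2 of 31322 in the brain and 10 of 77666 in the retina occur in more than 1 library. *Tgfbr1* itself was at 36.5 CPM (UMIs of the gene per 1000000 UMIs of all genes) in the brain control and 26.2 in the brain CKO library. In the retina it was at 89.0 in the control and from 71.4 to 87.0 in 10 CKO libraries, with 365 in CKO library 4, where it rests on 33 UMIs. UMIs read from the 3′ end do not test the deletion of an exon in a few cells.

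Levels by cell type are given as CPM of the UMIs of the same cell type label and library. Intervals in brackets are exact 95% intervals (Poisson for a level, Clopper-Pearson for a share of nuclei, conditional binomial for a ratio). They cover counting error only. A count of 0 is read against a floor of 3 UMIs. The brain has 1 library per genotype, so that its ratios have no test, and differences of genotype, animal and library cannot be told apart. Among these, *Xist*, an RNA of the inactive X chromosome of females, was at 1963 CPM in the brain control and 1.29 in the brain CKO library, so sex differs with genotype there. *Xist* was at 6779 CPM in the retina control. Of the retina CKO libraries, 1, 2, 4 and 7 had 5577 to 6823 CPM and the other 7 at most 12.9, so the CKO libraries hold both sexes.

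The brain libraries are labelled brain endothelial cells, but 2475 of the 16649 control nuclei and 2944 of the 14675 CKO nuclei carry the authors' label ECs. The 9 endothelial markers summed to 12522 CPM in ECs of the control and 9631 in those of the CKO library, and all 9 were detected in both. The 8 pericyte markers were also at 8390 and 7127 CPM in ECs, with *Rgs5* the most abundant, and only 363 control and 133 CKO nuclei of this label had no pericyte-marker UMI. The label vSMCs held endothelial markers at 5600 CPM in the control beside vSMC markers at 4521. Nuclei labelled glia had the highest fibroblast markers of all brain labels, 4680 CPM in the control against 4273 in the CKO library, and so are called here by their label only. The cluster CP_8 had choroid plexus markers at 41582 CPM in the control, CP_6 had ependymal markers at 6635, and the cluster Glut_20 held oligodendrocyte markers at 6358. Pericytes and microglia fell under 100000 UMIs in a library in at least the CKO library (9213 and 14637 UMIs). The retina has no label for ECs.

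*Cxcl12* codes for the chemokine that binds *Cxcr4* and holds leukocytes at the abluminal side of brain vessels. In brain ECs it was at 1807 CPM in the control [1773 to 1842] against 1298 in the CKO library [1271 to 1325]. ECs held 91.5% of all *Cxcl12* UMIs of the control library and 98.5% of those of the CKO library. The next labels in the control were vSMCs at 419 CPM and pericytes at 287, each step larger than counting error, followed by glia at 56.0 and Glut_20 at 51.2, which did not differ from each other. ECs thus led in both brain libraries, and the CKO level was the lower, at a ratio of 0.718 [0.698 to 0.739]. In 6 of 6 ways of choosing or scaling EC nuclei the ratio was below 1, from 0.552 to 0.954. The summed endothelial markers of the same nuclei were also lower in CKO, at 12522 against 9631 CPM under the label. Without pericyte markers, where the *Cxcl12* ratio was 0.552, they were at 21958 and 12705 CPM. In nuclei with at least 2 endothelial markers, where it was 0.954, they were at 9109 and 8896. The part of this marker difference in the *Cxcl12* ratio was not tested. In vSMCs *Cxcl12* fell as well, from 419 to 271 CPM, a ratio of 0.647 [0.498 to 0.83].

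Levels in other labels are set here beside the endothelial markers of the same label, each as a share of its level in ECs. In control vSMCs the endothelial markers were at 44.7% of their level in ECs, and *Cxcl12* was at 23.2%, *Tnfsf10* at 46.6%, *Tnfrsf11b* at 21.8%, *Tnfaip1* at 49.9%, *Ccl25* at 99.8%, *Ccl19* at 150% [78.4 to 274], *Ccl2* at 375% and *Cx3cl1* at 583% [412 to 831]. In control pericytes the markers were at 16.5%, *Cxcl12* at 15.9% and *Tnfaip1* at 104% [73.0 to 144]. In Glut_20 the markers were at 3.00% and *Cxcl12* at 2.84%, and in control glia the markers were at 7.39% and *Tnfrsf11b* at 495%. The part of EC transcripts in these levels was not tested.

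*Tnfsf10* codes for TRAIL, a ligand that can start cell death through *Tnfrsf10b*, its only death receptor in the mouse. In brain ECs it was at 31.9 CPM in the control [27.5 to 36.8] against 111 in the CKO library [104 to 120]. The next label, vSMCs, was at 14.9 in the control against 27.1 in the CKO library, and neurons of Glut_0 had 0 UMIs in both. ECs led in both libraries beyond counting error, with 82.6% of *Tnfsf10* UMIs in the control against 98.8% in the CKO library. The ratio in ECs was 3.49 [2.97 to 4.12]. A UMI of *Tnfsf10* was found in 163 control EC nuclei (6.59%, median depth 1347 UMIs) and in 590 CKO EC nuclei (20.0%, median depth 1491), against 0 of the Glut_0 nuclei of either library (median depths 5004 and 2314). The most UMIs in 1 nucleus were 4 in the control against 5 in the CKO library, so the difference is spread over many nuclei.

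*Ccl2* codes for the chemokine that draws monocytes through *Ccr2*. Brain ECs held 8 *Ccl2* UMIs in the control (1.38 CPM [0.595 to 2.72]) and 98 in the CKO library (14.3 CPM [11.6 to 17.4]). In the control the highest label was vSMCs at 5.17 CPM, also from 8 UMIs and at 375% of the EC level [123 to 1147], which did not differ beyond counting error from Glut_20 (1 UMI). In the CKO library ECs held 96.1% of the gene's UMIs and exceeded CP_6, the next label with UMIs (2), beyond counting error. vSMCs had 0 UMIs there, which allows up to 11.6 CPM at the floor of 3 UMIs, so no change of order between ECs and vSMCs is given. The ratio in ECs was 10.4 [5.06 to 24.7].

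The *Ccl2* UMIs of CKO ECs came from few nuclei. They lay in 55 of 2944 EC nuclei (1.87% [1.41 to 2.43]), with 19 UMIs in 1 nucleus and 79 without it, against 7 of 2475 in the control (0.283% [0.114 to 0.582]) and 1 of the Glut_0 control nuclei (0.0473%, at a median depth of 5004). All 55 nuclei held UMIs of at least 2 endothelial markers, 54 held a pericyte marker and 3 an immune marker. Those with a *Ccl2* UMI were deeper than the label as a whole, with a median of 3090 UMIs against 1491.

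*Ccl19* codes for a ligand of *Ccr7* that guides dendritic and T cells. In the brain control it was at 10.3 CPM in vSMCs [5.91 to 16.8], 6.93 in glia and 6.89 in ECs [4.93 to 9.39], from 16, 12 and 40 UMIs. In the CKO library it was at 12.4 CPM in ECs [9.91 to 15.3], 11.6 in vSMCs (3 UMIs) and 2.00 in glia (1 UMI). The order of vSMCs and ECs does not hold beyond counting error in either library, and 0 UMIs were found in Glut_0. In ECs the ratio was 1.80 [1.22 to 2.69], under the 2-fold threshold used here, and it passed that threshold, at 2.25, when every nucleus had equal weight. The reference annotation lists pseudogenes and noncoding RNAs named as copies of *Ccl19*, so reads shared with them can be lost or misplaced, which was not tested.

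*Cx3cl1* codes for fractalkine, a membrane-bound chemokine that neurons show to microglia. Glut_20 was highest in both brain libraries, at 626 CPM in the control [561 to 698] against 652 in the CKO library [539 to 782]. The cluster GABA_9 was at 90.0 in the control against 67.1 in the CKO library, Glut_0 at 60.5 and 65.9, and vSMCs at 56.3 and 85.2. ECs were at 9.65 in the control against 15.2 in the CKO library. Glut_20 stood above every other label in both libraries, GABA_9 came next in the control, and ECs held 2.56% of the control's *Cx3cl1* UMIs and 7.64% of those of the CKO library. In ECs the ratio was 1.57 [1.13 to 2.22] under the authors' label, and it turned to 0.808 [0.654 to 0.995] when ECs were taken as nuclei with at least 2 endothelial markers, so that no direction is given. Outside ECs the interval of the ratio excluded 1 in GABA_9 (0.746 [0.585 to 0.945]), Glut_1 (0.820 [0.680 to 0.987]) and Glut_11 (1.38 [1.02 to 1.87]).

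*Ccl25* codes for a ligand of *Ccr9* known from thymus and gut. In the brain control it was at 96.6 CPM in CP_6, 90.6 in CP_8, 71.2 in Glut_17, 63.2 in Glut_1 and 16.2 in ECs. In the CKO library the same labels were at 79.7, 43.3, 47.9, 59.7 and 25.8. Among the labels above 15 CPM, neighbours in the order lay within counting error of each other, except CP_6 over the next label, Glut_1, in the CKO library. CP_6 was thus highest in both libraries, neurons were not far below, and ECs were low. The ratio was 1.59 in ECs [1.23 to 2.07], 0.825 in CP_6 [0.658 to 1.03], 0.478 in CP_8 [0.317 to 0.700], 0.558 in GABA_9 [0.396 to 0.776] and 0.672 in Glut_17 [0.459 to 0.974]. It was also below 1 beyond counting error in astrocytes (0.337, 32 and 4 UMIs) and oligodendrocytes (0.278, 23 and 3 UMIs).

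*Cxcl10* codes for a ligand of *Cxcr3* that interferon induces. Brain ECs held 0 UMIs of it in the control (up to 0.517 CPM at the floor of 3 UMIs) and 19 in the CKO library (2.77 CPM [1.67 to 4.33]), from 15 nuclei. The sum is under the minimum of 20 UMIs used for ratios, so no ratio is given. CP_6 held 23 of the control library's UMIs, 20 of them in 1 nucleus. ECs held 70.4% of the UMIs of the CKO library, although OPCs, from 2 UMIs, had the highest level there.

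*Tnfrsf11b* codes for osteoprotegerin, a secreted decoy receptor that binds RANKL (*Tnfsf11*) and TRAIL. In glia it was at 132 CPM in the control [116 to 150] against 152 in the CKO library [120 to 191]. In ECs it was at 26.7 in the control [22.7 to 31.3] against 73.8 in the CKO library [67.6 to 80.6]. Glia were thus highest in both libraries beyond counting error, with ECs second, and the gap narrowed. The ratio was 2.76 in ECs [2.30 to 3.33] and 1.15 in glia [0.877 to 1.5]. ECs held 37.1% of the gene's UMIs in the control against 85.5% in the CKO library, where fewer glia nuclei were captured (419 against 1227). A UMI was found in 123 control EC nuclei (4.97%) and 398 CKO EC nuclei (13.5%), against 2 Glut_0 nuclei (0.0947%) of the deeper control label and 0 of the CKO label.

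*Tnfaip1* was at 304 CPM in pericytes of the brain control [214 to 419], 292 in ECs [278 to 306] and 145 in vSMCs. In the CKO library it was at 302 in ECs [289 to 316] and 190 in vSMCs. Pericytes and ECs of the control did not differ beyond counting error, and Glut_0 had 1 UMI in the control against 0 in the CKO library. The ratio in ECs was 1.04 [0.971 to 1.11] and 0.964 with TMM scaling. It was 1.32 [1.24 to 1.40] in nuclei with at least 2 endothelial markers and 2.72 [1.13 to 6.46] in EC nuclei without pericyte markers (13 and 12 UMIs), so it depends on how ECs are taken and no direction is given. The near absence from neurons is shared by a transcript of cells at large: *Actb* was at 3908 CPM in control ECs and 2.50 in Glut_0. These levels, and the low counts of the other genes in neurons, stand after the authors' removal of background RNA, whose part in them was not tested, so a count near 0 in Glut_0 does not mark a gene as one of ECs. In the retina *Tnfaip1* was found in all 11 labels, at 11.2 to 24.9 CPM in the 9 labels of the control with UMIs, with no label far above the others.

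**Figure D1:**
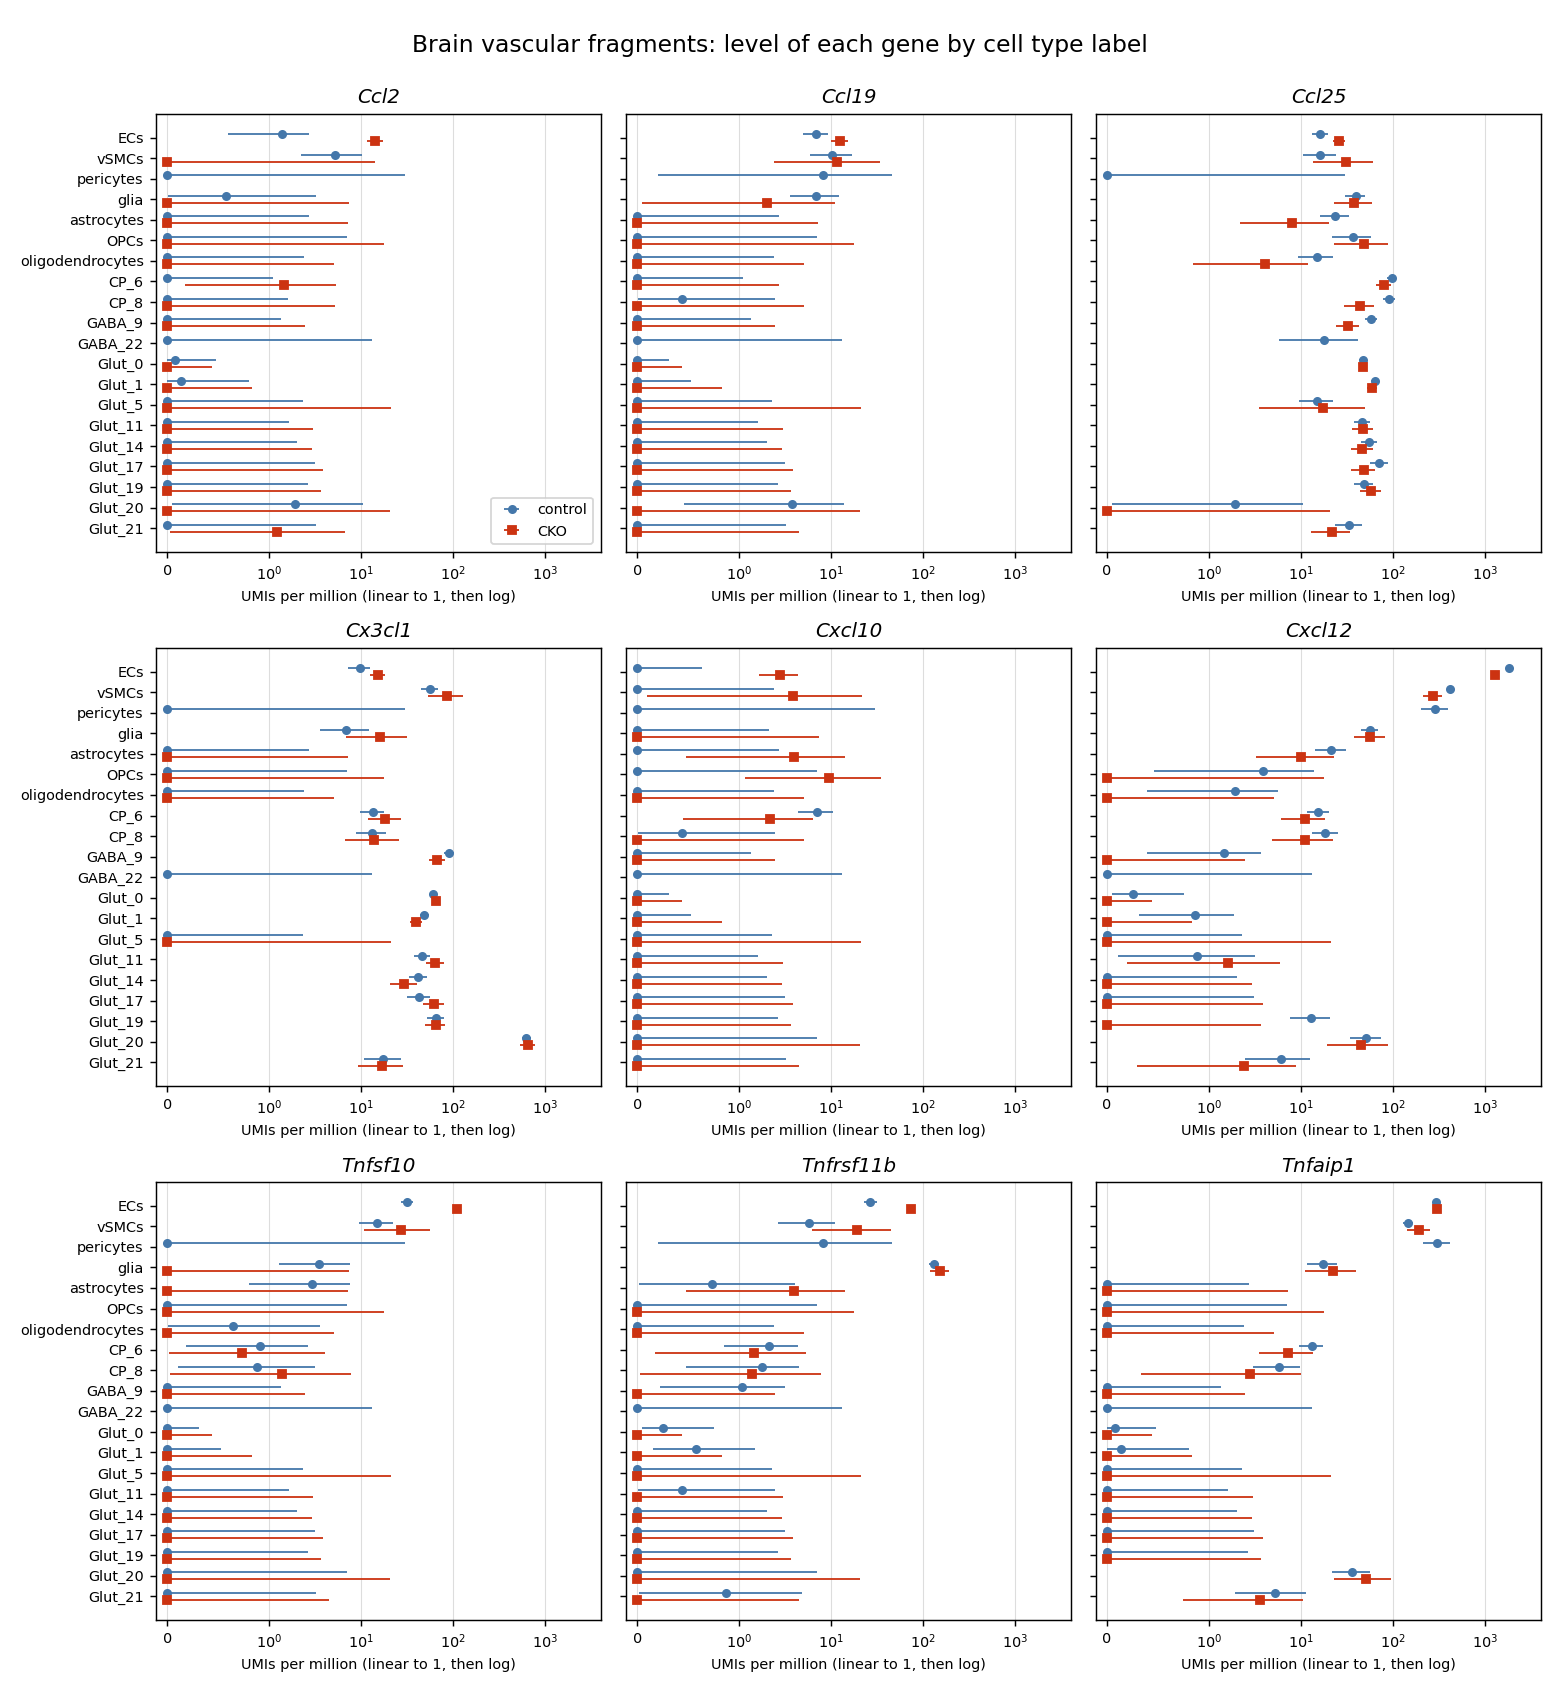
Level of each of the 9 genes (CPM, linear up to 1 and then log) in each brain label with at least 100000 UMIs, for the control and the CKO library, with exact 95% intervals. *Cxcl12* and *Tnfsf10* are highest in ECs of both libraries, *Tnfrsf11b* in glia, *Cx3cl1* in Glut_20 and *Ccl25* in CP_6.

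Brain ECs were compared over all genes with the same rule: at least 20 UMIs over both libraries, and a ratio of at least 2 or at most 0.5. Among 13154 genes, 11.2% rose (1470 genes) and 5.79% fell (761 genes) past these thresholds. With ECs taken as nuclei with at least 2 endothelial markers this balance turned, as 4.56% of 15382 genes rose (701 genes) and 18.3% fell (2812 genes). Under the authors' label, of the 9 named genes 8 had enough UMIs, and 3 rose (*Ccl2*, *Tnfsf10* and *Tnfrsf11b*) and 0 fell. Their median log2 ratio was 0.76, against 0.14 over all genes, and 7 of 8 ratios were above 1 against 7972 of 13154. Since the study picked most of them for a rise on these libraries, nothing follows from the 3. Relative to the median of all genes, the log2 ratio was 3.24 for *Ccl2*, 1.67 for *Tnfsf10*, 1.33 for *Tnfrsf11b*, 0.71 for *Ccl19*, 0.54 for *Ccl25*, −0.09 for *Tnfaip1* and −0.61 for *Cxcl12*. TMM scaling moved the median of all genes to 0.03 and left the same count of 3.

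The 3 that rose were followed through other ways of taking EC nuclei. *Ccl2* ranged from 7.48 to 17.8 over 5 settings that gave it enough UMIs, *Tnfsf10* from 2.70 to 4.33 over 6, and *Tnfrsf11b* from 2.20 to 3.32 over 5. Among nuclei with transcripts of the fixed capillary markers and of no arterial or venous marker (558 control and 543 CKO nuclei), *Tnfsf10* was at 60.3 CPM in the control against 181 in the CKO library, *Tnfrsf11b* at 53.9 and 81.6, and *Ccl2* at 0 and 29.8 (0 and 15 UMIs). In these capillary nuclei *Cxcl12* was at 2094 CPM in the control against 1482 in the CKO library. This subset is chosen by markers that themselves fall in CKO ECs and its nuclei are shallow (median 603.5 and 668 UMIs), so it is no check of the directions over all ECs. Nuclei with arterial or venous markers alone were too few for levels, from 8 to 22 nuclei.

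**Figure D2:**
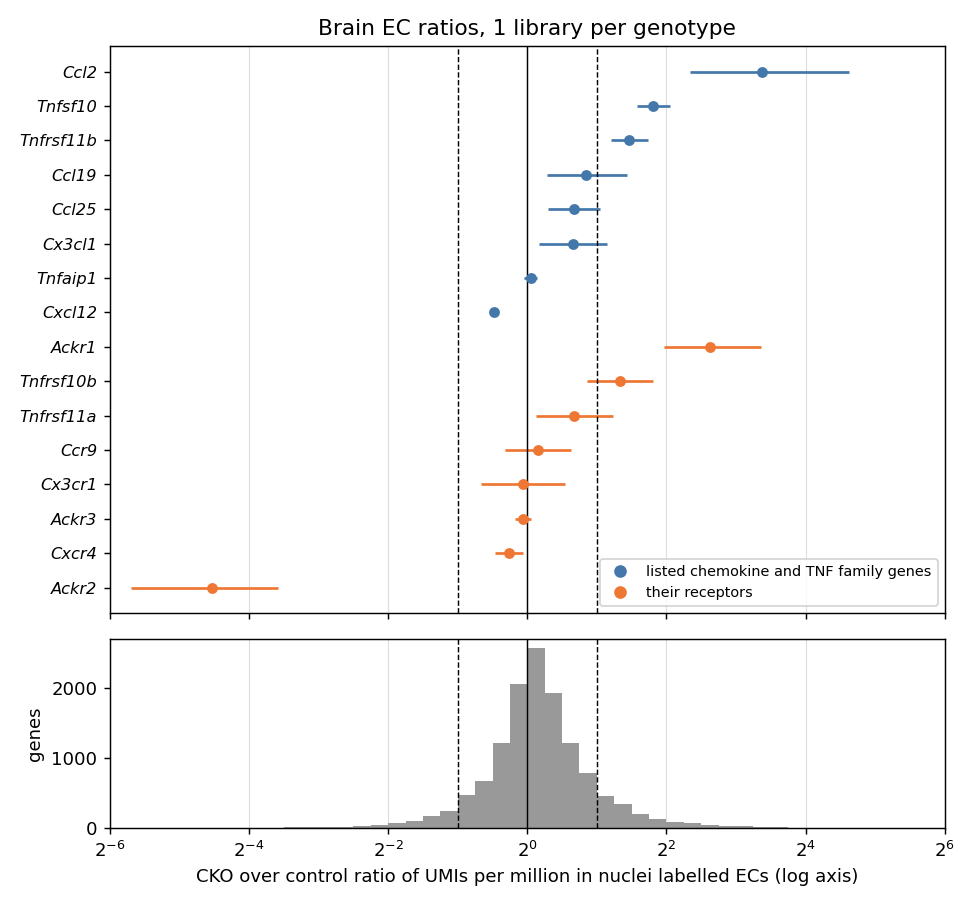
CKO over control ratio of CPM in nuclei labelled ECs (log axis, exact 95% intervals, 1 library per genotype) for 8 of the named genes and 8 of their receptors, above the number of genes at each ratio among 13154 genes. Dashed lines mark ratios of 0.5 and 2, past which lie *Ccl2*, *Tnfsf10*, *Tnfrsf11b*, *Ackr1*, *Tnfrsf10b* and *Ackr2*.

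The receptors and binding partners of these ligands form a list of 14 genes, of which 8 had enough UMIs in brain ECs, 2 rose, 1 fell and the median log2 ratio was 0.04 (all genes: 11.2% rose, 5.79% fell, median 0.14). *Ackr1*, a chemokine-binding receptor of venules that does not signal through G proteins, was at 3.62 CPM in control ECs against 22.3 in CKO ECs, with a ratio of 6.17 [3.90 to 10.3]. *Tnfrsf10b*, the TRAIL death receptor, was at 8.96 and 22.5, a ratio of 2.51 [1.82 to 3.50]. *Ackr2*, a scavenger of CC chemokines that include *Ccl2*, was at 30.5 in control ECs against 1.31 in CKO ECs, with a ratio of 0.0431 [0.0193 to 0.0837]. Control ECs held 92.7% of the *Ackr2* UMIs of their library, and CKO ECs held 9 UMIs. *Ackr3*, the scavenger of *Cxcl12*, was at 205 CPM in control ECs and 196 in CKO ECs, and *Cxcr4* at 66.9 and 55.8. *Ccr9* was at 11.7 and 12.99, *Cx3cr1* at 7.93 and 7.59, and *Tnfrsf11a* (RANK) at 7.58 and 12.1. These 5 stayed within 2-fold. *Ccr2*, *Ccr7*, *Cxcr3*, *Ackr4* and *Tnfsf11* had from 0 to 8 UMIs over both libraries of ECs.

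Outside ECs, receptors were read where their ligands could act. *Ackr1* was highest in the brain cluster Glut_5, at 373 CPM in the control against 326 in the CKO library, and *Ackr3* in control pericytes, at 706 CPM. *Ccr9* was at 230 CPM in control pericytes. In retinal immune cells of the CKO libraries *Ccr2* was at 110 CPM, with UMIs in 11 of 11 libraries, and these cells held 84.8% of its UMIs. The control library had 0 *Ccr2* UMIs in any cell, among 29 immune nuclei and 114469 immune UMIs, which allows up to 26.2 CPM in them at the floor of 3 UMIs. *Cx3cr1* was at 227 CPM in control and 175 in CKO immune cells, and *Tnfrsf11a* at 87.4 and 128. The paper finds microglia in retinas of both genotypes and its other immune types in CKO retinas only, so a change in the cells of this label and a change per cell cannot be told apart. *Ccr2* in the CKO libraries and *Cx3cr1* in both genotypes thus had their highest retinal levels in immune cells. The chemokine-binding *Ackr1* did not. It was highest in cone bipolar cells of the CKO libraries, at 175 CPM, and in glycinergic amacrine cells of the control, at 163 CPM. *Ackr2* was low, with its highest levels in rods of the CKO libraries (0.385 CPM) and horizontal cells of the control (1.34 CPM from 1 UMI). *Cxcr3* had no UMIs in the retina.

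The related lists give the wider family in brain ECs under the authors' label, where 11.2% of all genes rose and 5.79% fell. They were not counted in nuclei with at least 2 endothelial markers, where 18.3% of all genes fell. Of the other chemokines listed, 26 were in the matrix and 7 had enough UMIs, 2 rose (*Cxcl1*, 6 and 24 UMIs, and *Cxcl16*, 8 and 23) and 1 fell (*Ccl8*, 26 and 3), with a median log2 ratio of −0.10. Of the list of other TNF family ligands, which includes 1 opposite-strand transcript, 16 were in the matrix and 3 had enough, 1 rose (*Tnfsf13*, ratio 2.29 [1.42 to 3.83]), and the median was 0.85. Of 25 other TNF receptors 14 had enough, 0 rose and 5 fell, with a median of −0.29. *Edar* fell to a ratio of 0.357, *Fas* to 0.398, *Cd40* to 0.422 and *Tnfrsf12a* to 0.448. Of 9 other genes named for TNF induction or related to *Tnfaip1*, 6 had enough and 1 rose (*Kctd13*, 6 and 50 UMIs, ratio 7.06 [3.02 to 20.1]), with a median of 0.38. Of the EC subtype markers, 0 of 8 arterial and 0 of 7 venous genes passed either threshold, with medians of −0.13 and −0.12. All 6 capillary genes had ratios below 1 and 3 fell past 0.5 (*Spock2* to 0.288, *Tfrc* to 0.333 and *Mfsd2a* to 0.468), with a median of −0.98. The capillary markers thus move with genotype, and their part in the changes of the named genes was not tested.

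In the retina the question was which types hold these transcripts and whether a type differed with genotype with 1 control and up to 11 CKO libraries. In each of 10 labels with at least 20 nuclei in the control, summed UMIs were tested with edgeR with the authors' batch (the control with CKO libraries 1 to 3; 4 and 5; 6 to 11) as a covariate, p-values were adjusted over all genes of a label, and the lone control was assumed to vary like the CKO libraries. As the control is in batch 1, each fold change rests on the control against CKO libraries 1 to 3, and the others add only to the estimate of variation. Astrocytes, with 12 control nuclei, could not be tested. For some genes below, the lone control lay above or below all CKO libraries of a label. How often this holds over all genes was not counted, so nothing is read from it. Over all genes, 0.00575% of 121773 tests had an adjusted p under 0.05 (7 tests), and 2.95% an unadjusted p under 0.05 (3595 tests). Of 28 tests of the named genes edgeR called 0, with 4 at an unadjusted p under 0.05 (3 of them up). DESeq2 called 0, with 3 under 0.05, but it gave no adjusted p for 7 of the 28. Over all genes DESeq2 called 66 of 121773 tests, with 2.08% at an unadjusted p under 0.05.

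*Cx3cl1* in the retina was highest in ganglion cells (RGC), at 28.4 CPM in the control and 20.9 to 41.8 in 10 CKO libraries (median 26.0). GABAergic amacrine cells (GABA_AC) were at 19.3 in the control and 17.1 to 28.6 in CKO (median 23.3). Glycinergic amacrine cells (Gly_AC) were at 2.54 in the control and 5.91 to 12.1 in CKO (median 8.55). RGC led in 9 of the 11 libraries with *Cx3cl1* UMIs in labels of at least 100000 UMIs, but beyond counting error over the next label in only 2 (the control and CKO library 5), and GABA_AC led in CKO library 6. The control lay inside the CKO range in RGC and GABA_AC, and below all 10 CKO libraries in Gly_AC. There the log2 fold change was 1.46 (standard error 0.55), with p 0.0193 and an adjusted p of 1 in edgeR.

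*Ccl25* was spread over all retinal labels, from 52.4 to 81.4 CPM in the 10 tested labels of the control. In Müller glia (MG) it was at 80.1 in the control and 36.5 to 79.9 in CKO (median 71.9). In rods it was at 60.4 in the control and 64.4 to 78.9 in CKO (median 68.2). The MG control lay just above the highest of the 10 CKO libraries, and the rod control below all 10. In MG the log2 fold change was −0.91 (standard error 0.25), with p 0.00238 and an adjusted p of 0.462 in edgeR, and in rods 0.18 with an adjusted p of 1. The MG value rests on CKO libraries 1 to 3, at 50.2, 36.5 and 43.8 CPM, and with no covariate it was −0.38 with p 0.279. Cones led in 7 of 11 libraries, with no library in which they exceeded the next label beyond counting error.

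*Cxcl12* in the retina was highest in astrocytes, at 416 CPM in the control [221 to 711], from 13 UMIs in 12 nuclei, and at 26.8 to 175 in the 5 CKO libraries with at least 100000 UMIs in the label (median 134). Over all CKO libraries these nuclei held 44.5% of *Cxcl12* UMIs. Their pericyte markers summed to 544 CPM over the CKO libraries, 6 of 8 detected and 492 of it *Rgs5*, and their endothelial markers to 101, with *Cldn5* and *Cdh5* at 0. The part of these markers' cells in the level was not tested. In MG *Cxcl12* had 0 UMIs in the control (floor 1.99 CPM) and was at 1.19 to 9.96 CPM in CKO (median 2.36), from 44 UMIs in 10 of 10 libraries. In GABA_AC the control, at 2.52 CPM from 14 UMIs, lay above all 10 CKO libraries (0 to 2.48, median 0.928). In MG some CKO libraries lay under what a count of 0 in the control allows, and the adjusted p there was 0.626 in edgeR (p 0.0141).

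*Ccl2* in the retina was sparse, and over all CKO libraries MG (86 UMIs) and immune cells (35) held the most. The 5 UMIs of the control lay in GABA_AC (3), RGC (1) and rods (1). Horizontal cells (HC) were highest in CKO libraries 2 and 3, from 1 and 2 UMIs, and GABA_AC held 6 of the 8 UMIs of CKO library 11. Immune cells had 0 UMIs in the control (floor 26.2 CPM) and from 0 to 30.4 CPM in the 9 CKO libraries with at least 100000 UMIs in the label (median 7.78). In the 11 CKO libraries 24 of 691 immune nuclei (3.47%, median depth 1773) held a UMI. MG had 0 UMIs in the control (floor 1.99 CPM) and from 0 to 50.95 CPM in 10 CKO libraries (median 0.694). CKO library 1 alone gave the high value: it held 67 of the 86 *Ccl2* UMIs of MG, and 38 of the 86 lay in 1 nucleus. The adjusted p in MG was 0.712 in edgeR (p 0.0369, log2 fold change 7.81), but that contrast rests on CKO libraries 1 to 3, and 2 and 3 had 0 UMIs in MG, so it is the value of library 1. With no covariate p was 0.231. At 0.524% the share of CKO MG nuclei with a UMI (14 of 2670, median depth 3394) is above the 0.0117% of cone bipolar cells (CBC; median depth 3551).

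The other 4 genes were sparse or even in the retina. *Tnfrsf11b* in RGC was at 1.65 CPM in the control from 4 UMIs and at 0 to 9.16 in CKO (median 1.14), and RGC held 57.7% of its CKO UMIs. RGC led in 7 of the 10 libraries with *Tnfrsf11b* UMIs, but beyond counting error over the next label only in CKO library 11. Astrocytes led in CKO library 1, immune cells in CKO library 3 and GABA_AC in CKO library 7. *Cxcl10* had 0 UMIs in the control against 57 in all CKO libraries, 22 of them in 7 astrocyte nuclei and 16 in 8 immune nuclei. *Tnfsf10* had 2 UMIs in the control against 61 in the CKO libraries, with 21 in rods, 1 in each of 21 nuclei of the largest label. By level astrocytes led for *Tnfsf10* in 3 CKO libraries, beyond counting error over the next label in 1 (CKO library 1, 20.0 CPM from 3 UMIs). *Ccl19* had 1 UMI in the control against 7 in the CKO libraries. For *Tnfaip1*, whose levels are given above, the control lay above all 10 CKO libraries in MG (22.5 against 9.25 to 21.4, adjusted p 0.901) and below all 10 in RGC (13.6 against 13.7 to 21.4, adjusted p 1). Without a label for ECs, the vascular sources seen in the brain cannot be read here.

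**Figure D3:**
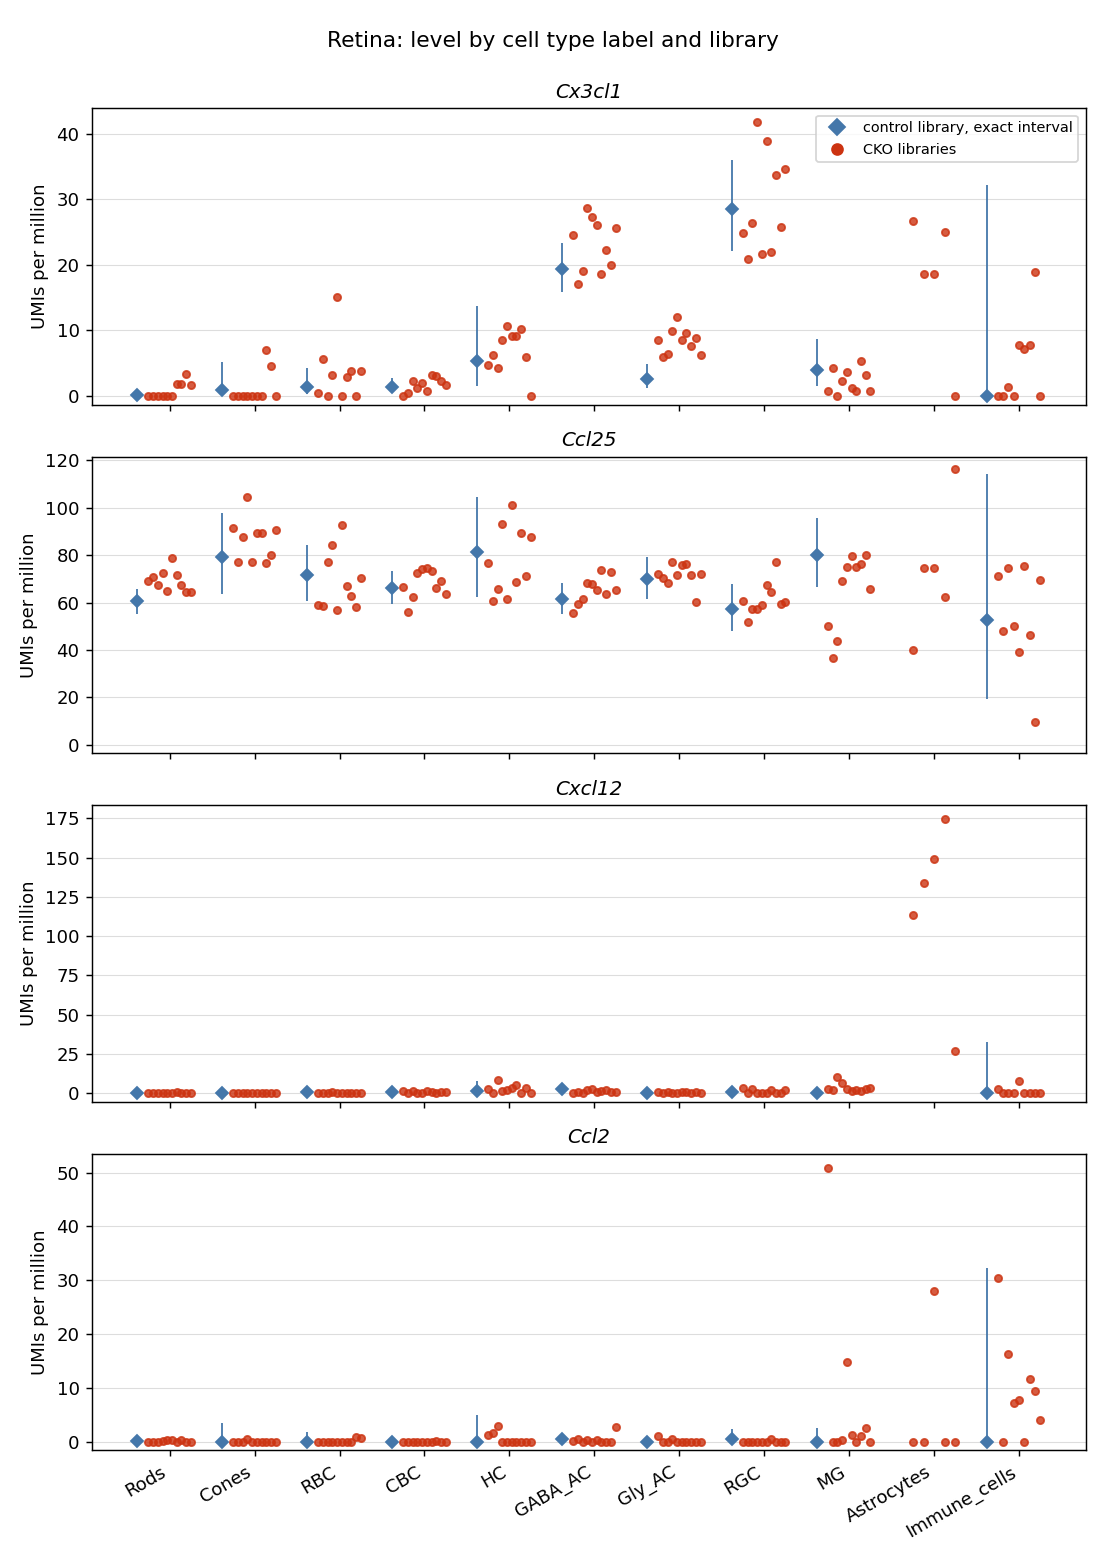
Level of *Cx3cl1*, *Ccl25*, *Cxcl12* and *Ccl2* (CPM) by retinal label, with the control library as a diamond with its exact 95% interval and each CKO library as a point, where the label holds at least 100000 UMIs in the library; the control point of astrocytes (12 nuclei) is under this and is not drawn. Control and CKO points overlap for *Cx3cl1* in RGC and GABA_AC, and 1 CKO library stands apart for *Ccl2* in MG.

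Over whole retinal libraries, fewer cells of a type and less RNA per cell cannot be told apart. A two-sided exact permutation test of 1 control against 11 CKO libraries cannot give a p below 0.0833, and within batch 1 (the control and CKO libraries 1 to 3) none below 0.25. *Cx3cl1* was at 6.68 CPM in the control and 6.50 to 11.1 in CKO (median 7.85), above the control in 10 of 11 libraries, with an exact permutation p of 0.333. Within batch 1 it was above the control in 3 of 3 libraries, with an exact p of 0.25. *Tnfsf10* was at 0.0645 in the control and 0 to 0.547 in CKO (median 0.254), above it in 10 of 11 libraries (exact p 0.333). The exception is CKO library 4, whose 0 UMIs allow up to 33.2 CPM, and without it 10 of 10 lay above the control (exact p 0.273), as did 3 of 3 within batch 1 (exact p 0.5). *Ccl2* was at 0.161 in the control and 0.155 to 22.1 in CKO (median 0.358), above it in 10 of 11 (exact p 0.25). The highest *Ccl2* value is that of CKO library 4, and without it the difference of means falls from 2.41 to 0.460 CPM. The other 6 genes had exact permutation p from 0.667 to 1, and the groups overlapped for each of them. The control lay within the range of the CKO libraries for all 9 genes, but for *Tnfsf10* only through CKO library 4.

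Genes whose levels follow the named genes most closely over labels were found by Pearson's r of log2 levels, as a description over 20 brain and 11 retinal labels that share their libraries. In the brain *Cxcl12* was followed by *Slc7a5* (r 0.99), *Nostrin* and *Adgrf5*, *Tnfsf10* by *Mmp25* (r 0.99), *Lyl1* and *Gbp3*, and *Ccl2* by *Mad2l1* (r 0.96), *Gm9917* and *Ankrd37*. All 9 of these are highest in ECs. *Ccl19* was followed by *Smtn* (r 0.99), *Cnn2* and *Rras*, and *Tnfaip1* by *Rflnb* (r 0.99), *Oaz2* and *Dusp6*, each highest in ECs or in mural labels. *Tnfrsf11b* was followed by *Vamp5* (r 0.95), *Sp140* and *Htra3*, all highest in glia, *Cx3cl1* by *Uchl1* (r 0.95), *Pld3* and *R3hdm4*, all highest in Glut_20, and *Ccl25* by *Umad1* (r 0.96), *Lrba* and *Zfp974*. In the retina the closest were *Lamb1* for *Cx3cl1* (r 0.97), *Serpina3n* for *Cxcl12* (r 0.99), *Rin3* for *Ccl2* (r 0.99), *Wbp1* for *Tnfaip1* (r 0.92) and *4930483O08Rik* for *Ccl25* (r 0.90). The next after these were *Slc5a6* and *Cox7b2* for *Cx3cl1*, *Rgs5* and *Chdh* for *Cxcl12*, *2610203C22Rik* and *Stard8* for *Ccl2*, *Atn1* and *Lysmd1* for *Tnfaip1*, and *3000002C10Rik* and *Gm9828* for *Ccl25*.

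On GRCm39 (GENCODE vM39) the 9 genes lie on 7 chromosomes, and the genes that share chr8 or chr11 do not overlap. *Ccl2* spans chr11:81926397-81928279 (+), *Ccl19* chr4:42754525-42756577 (−), *Cx3cl1* chr8:95498637-95509055 (+), *Cxcl10* chr5:92494497-92496748 (−) and *Cxcl12* chr6:117144945-117158328 (+). *Tnfsf10* spans chr3:27371033-27396576 (+), *Tnfrsf11b* chr15:54114015-54142075 (−), *Tnfaip1* chr11:78413676-78427162 (−) and *Ccl25* chr8:4374661-4540760 (+). The annotation of *Ccl25* is unlike that of a chemokine gene elsewhere in the set: of its 33 transcripts 30 start within 1000 bases of the start of *Elavl1*, a gene of the other strand, and 17 end before the last start at 4399588. UMIs counted for *Ccl25* can thus come from transcripts that do not reach the chemokine exons, and with counts per gene these were not separated. *Cxcl10* lies inside *Art3*, and *Ccl19* inside a long noncoding RNA, each on the other strand.

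Since 3 of the genes rose in the same ECs, the 250 bases before the start of each gene were read from RefSeq (GRCm38.p6), where 7 of the 9 had an entry (not *Ccl2* and *Tnfrsf11b*). Motifs were chosen after the data were seen and searched on both strands: CAGAC (a SMAD binding element, in 42.2% of 32536 distinct promoters), TGANTCA (AP-1, 6.73%) and GAAA followed by any 2 bases and GAAA again (interferon response type, 2.98%). Shown are *Tnfsf10*, the ligand with the most UMIs among the 3, and *Cxcl10* and *Ccl19*, the 2 with the interferon response type match, with matches in capitals; a match is a description and not a site. *Tnfsf10* lies at chr3:27316827-27317076 (+), *Cxcl10* at chr5:92348890-92349139 (−) and *Ccl19* at chr4:42756366-42756615 (−).
Tnfsf10: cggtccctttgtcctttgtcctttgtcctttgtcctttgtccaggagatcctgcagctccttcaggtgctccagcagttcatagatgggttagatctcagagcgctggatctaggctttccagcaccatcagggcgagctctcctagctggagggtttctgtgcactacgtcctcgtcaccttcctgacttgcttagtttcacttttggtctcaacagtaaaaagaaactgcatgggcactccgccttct
Cxcl10: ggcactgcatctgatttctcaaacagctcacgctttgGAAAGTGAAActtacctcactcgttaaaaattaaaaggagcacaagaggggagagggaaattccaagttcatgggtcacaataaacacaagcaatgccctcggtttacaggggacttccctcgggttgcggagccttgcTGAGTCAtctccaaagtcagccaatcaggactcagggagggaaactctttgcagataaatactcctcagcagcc
Ccl19: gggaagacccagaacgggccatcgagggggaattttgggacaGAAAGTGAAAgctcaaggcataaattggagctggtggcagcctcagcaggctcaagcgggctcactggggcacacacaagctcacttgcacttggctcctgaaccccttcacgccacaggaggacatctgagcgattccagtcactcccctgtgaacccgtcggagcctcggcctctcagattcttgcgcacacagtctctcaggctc
*Tnfsf10* holds none of the 3 motifs in this window, *Cxcl10* holds GAAAGTGAAA and TGAGTCA, and *Ccl19* holds GAAAGTGAAA. Of the windows of named genes not shown, that of the *Ccl25* start beside *Elavl1* holds CAGAC, and the rest hold none of the 3. The *Ccl25* start beside *Elavl1* has 45 CpG dinucleotides in its 250 bases, more than 99.6% of promoters (median 6), and the other *Ccl25* start has 0.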

How the data were processed

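Single-nucleus libraries of whole retina and of brain vascular fragments were measured with PIPseq kits (v4.0 PLUS for 10 libraries, v5.0 for retina CKO libraries 8 to 11). The deposited matrices hold UMI counts, made by the authors with PIPseeker and cleaned with CellBender and SOLO, with clusters curated by hand. The labels name the build mm10 and the paper GRCm39. UMIs were summed per label and library. Brain ratios have exact intervals and no test. Retinal sums were tested with edgeR 4.0.16 (TMM, filterByExpr, quasi-likelihood, batch as covariate, labels with at least 20 nuclei), with DESeq2 1.42.0 beside it, and whole libraries with exact permutation tests. No paired analysis was possible because replicates of the groups share no animal in the labels. The 9 genes and all lists were chosen with earlier results of these data known. Named beside the 9 are genes of the receptor list, list genes past 2-fold in ECs with at least 50 UMIs (at most 10), and 3 like genes for each gene with at least 100 UMIs; *Cxcl1*, *Cxcl16*, *Ccl8* and *Actb* were named after their values were seen. UMAP coordinates were not used here.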

Additional observations from a re-analysis of the deposited data

Results flagged for a closer look

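Among the CKO libraries of a retinal label, 1 library stood apart from the other 9 in 7 of 38 groups of levels examined, where the rule used gives about 1 in 20. That rate is for levels of equal spread, while some of the 7 rest on few UMIs, so the count is not read as an excess. *Ccl2* in MG was at 50.95 CPM in CKO library 1, from 67 UMIs, against 0 to 14.8 in the others. *Tnfrsf11b* in RGC was at 9.16 CPM in CKO library 11, from 9 UMIs, against 0 to 3.55. *Cx3cl1* in rod bipolar cells (RBC) was at 15.1 CPM in CKO library 6, from 13 UMIs, against 0 to 5.69. *Tnfaip1* in RBC was at 5.69 CPM in CKO library 2, from 4 UMIs, against 15.1 to 23.7, and in Gly_AC at 9.45 CPM in CKO library 7, against 13.8 to 18.7. *Ccl25* was at 104 CPM in cones of CKO library 5, against 76.8 to 91.4, and at 60.2 CPM in Gly_AC of CKO library 10, against 68.3 to 77.2.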

How the results depend on the processing

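In brain ECs the count of genes past 2-fold was 3 of 8 with TMM scaling (all genes: 9.46% rose, 7.14% fell), nuclei of at least 1000 UMIs (10.6% and 5.60%), nuclei with at least 2 endothelial markers (4.56% and 18.3%), or a minimum of 50 UMIs (9.45% and 3.90%). It was 4 of 8 as a mean over nuclei, where 24.8% of all genes rose, and 2 of 3 counted genes (*Tnfsf10* and *Tnfaip1*) in nuclei without pericyte markers, where 22.6% of all genes rose and 21.4% fell. The *Cx3cl1* ratio turned to 0.808 with nuclei of at least 2 endothelial markers; the cause was not tested. In the retina edgeR called 0 of the genes with the kit or no covariate, library totals, or without CKO libraries 4 and 5. In these settings 2 to 4 of 28 tests had an unadjusted p under 0.05. Over all genes they gave only 4 to 8 calls each, with 2.48% to 3.17% of tests at an unadjusted p under 0.05. DESeq2 called 0, with 3 under 0.05, and gave no adjusted p for 7 of 28. Over all genes it called 66 of 121773 tests, with 2.08% at an unadjusted p under 0.05. With no filter on low counts edgeR called 1 (*Ccl2* in MG, adjusted p 0.00873; 80 tests), among 244 calls in 246134 tests of all genes; the cause of the call was not tested. Leaving out CKO library 1, added after the data were seen, leaves *Ccl2* in MG at 0 UMIs in all libraries of batch 1, so its 0 calls are no check. The planned leave-one-out applied to calls of the batch fit with the filter, which made none, and was not run. Whole-library differences (CKO minus control, CPM) changed sign when 1 CKO library was left out for *Ccl25* (−2.13 to 3.23), *Cxcl12* (−0.122 to 0.0653) and *Tnfaip1* (−0.180 to 0.490), and within batch 1 for *Cxcl12* (0.0608). Ratios rest on 1 brain library per genotype, and levels in the retina on 1 control; counts under 20 UMIs (*Cxcl10* in brain ECs, *Ccl19* in the retina) set only limits.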
